A study of Mus musculus with 7 samples.

Results

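The genes described here are protein-coding genes of the mouse major histocompatibility complex (MHC) region, taken without nearly all of its class I and class II genes. They were chosen from the deposited gene table by position, as those that start between 33.8 and 38.2 Mb on chromosome 17 of GRCm39. All symbols that begin with H2- (the class I and class II genes, and a few others such as the dehydrogenase gene H2-Ke6), Tap1, Tap2, Tapbp, Psmb8, Psmb9, Gm10499, Gm8909, Gm11127, Tnf, and the olfactory receptor, ribosomal protein, Cyp and Btnl genes were left out. This gave 125 genes of the 46671 in the table, and 91 of them had a mean of at least 0.5 FPKM (reads scaled to gene length and library depth) over all libraries and could be tested. The rule itself used no expression value, but it was set with earlier results of these data known. The table's descriptions still name class I or a histocompatibility region for 4 of the 125, Gm7030, LOC68395, Gm6034 and 2410137M14Rik. Of these, Gm7030 and LOC68395 were tested, and without the 4, 77 of 89 tested genes were lower, with the same median as over all 91.

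RNA was sequenced from 7 samples of intestinal epithelium of BALB/C mice aged 8 weeks and kept under specific pathogen-free conditions. In the 4 samples labelled cKO, MST3 (gene Stk24), a kinase of the STE20 family, had been knocked out in intestinal epithelial cells, and the 3 Ctrl samples were labelled wild type. The labels name neither the Cre driver nor separate animals, and p-values therefore cover the spread among these samples, which may be technical. The treatment label states that no drug was given, whereas the design text mentions AOM and DSS, agents used to induce colitis-associated tumours; both groups carry the same label. BALB/C and C57BL/6J, the strain of the reference genome, carry different MHC haplotypes, and both groups were aligned to the same reference. Stk24, the targeted gene, averaged 19.9 ± 0.926 FPKM over the Ctrl libraries and 3.34 ± 0.435 FPKM over the cKO libraries (limma adjusted p = 0.000427). From 14659708 to 19659622 reads per library fell on genes, and 1 read of a gene of 1 kb corresponded to between 0.0515 and 0.0719 FPKM. The tissue label is colorectum. Of the large bowel markers, Car1 stood at no more than 0.0705 FPKM and Hoxd13 had no read, while the small intestinal enzymes Lct and Sis stood at 280 to 523 and at 413 to 823 FPKM.

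The MHC region is among the most gene-dense parts of the genome. Between the class II and class I genes lies the class III region, which holds genes of complement, of the tumour necrosis factor family and of stress-induced HSP70 chaperones, beside many housekeeping genes for transcription, RNA processing and protein folding. The order of these genes is largely conserved among mammals, and neighbours often lie head to head across a short stretch of DNA. In the intestinal epithelium many of them are expressed constitutively, whereas genes such as Ltb or Aif1 are typical of lymphocytes and macrophages.

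Most of these genes stood slightly lower in cKO, and no single one passed the test. Of the 91 tested genes, 78 (85.7%) had a log2 difference (cKO minus Ctrl, on log2(FPKM + 0.5)) below 0, against 51.3% of all 13057 genes tested. The median difference was -0.19 over the 91 genes and -0.0077 over all genes tested. With an adjusted p of 0.05 in limma, 0 of the 91 were called, where 0.0306% of all genes were. At an unadjusted p under 0.05 there were 13 lower and 0 higher among the 91, or 14.3%, where 4.73% of all genes were lower and 4.24% higher at that p. The smallest adjusted p was 0.475. In 9 genes all 4 cKO libraries lay below all 3 Ctrl libraries (4.51% of all genes), and in 0 genes all lay above (5.62% of all genes). The differences were small, between -0.89 for Ltb and 0.27 for Mrps18b, and 22 of the 91 lay within 0.1 of 0.

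**Figure D1:**
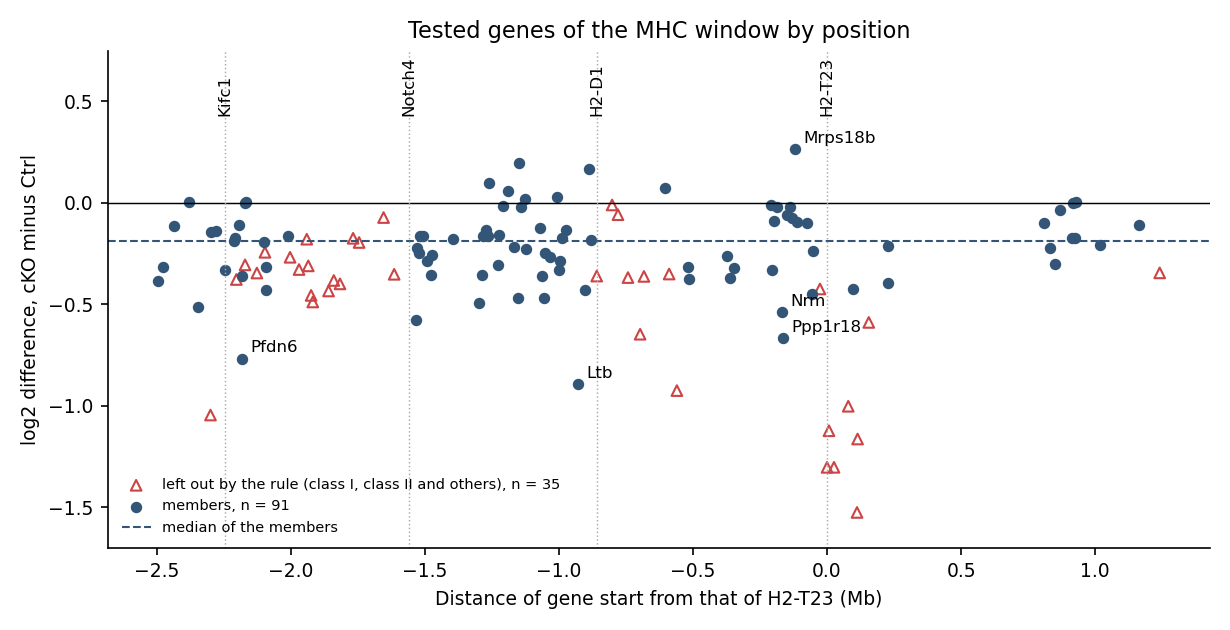
Log2 difference (cKO minus Ctrl) of each tested gene against the distance of its start from that of H2-T23, in Mb. Filled points are the 91 genes described here, with their median of -0.19 as a dashed line; open triangles are the 35 tested genes of the window that were left out, which all lie below 0.

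The count of 13 depended on single libraries and on scaling. It was 6 without Ctrl replicate 1 and 8 without cKO replicate 2 or cKO replicate 4, 4 after rescaling to a common sum and 3 once the GC trend of each library was taken out. Leaving out single libraries gave 72 to 84 genes lower, and the count of called genes was 0 in each of these alternatives. Rescaling to a common sum put 75.8% of the members and 38.7% of all genes below 0.

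The difference was seen at the level of libraries. Relative to the Ctrl mean of each gene, the median of the 91 genes lay at 0.065, -0.017 and -0.041 in Ctrl replicates 1, 2 and 3. It lay at -0.16, -0.22, -0.20 and -0.15 in cKO replicates 1 to 4. All 4 cKO libraries thus stood below all 3 Ctrl libraries, by more than the spread within groups (SD 0.043), although the Ctrl libraries are closer to their own mean by construction. Over all genes tested the same medians lay between -0.012 and 0.015. The reads of the 125 genes made up between 0.479% and 0.505% of a Ctrl library and between 0.416% and 0.502% of a cKO library, so the shares overlapped, with cKO replicate 1 inside the Ctrl range.

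**Figure D2:**
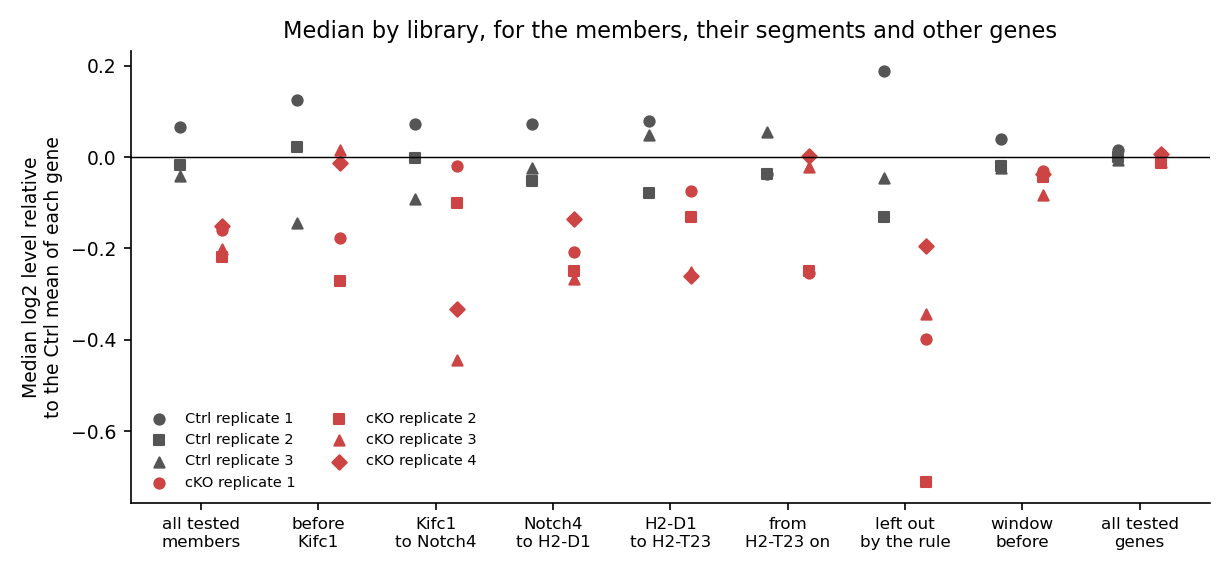
Median log2 level of each gene set in each library, relative to the Ctrl mean of each gene (Ctrl grey, cKO red, 1 symbol per replicate). The cKO libraries of the 91 genes lie between -0.22 and -0.15, whereas those of all tested genes lie near 0.

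GC content moved with this difference. The transcripts of the tested members had a median GC content of 56.0%, against 50.3% over all tested genes, and 49 of the 89 with a value lay in the most GC-rich of 5 equal classes of all genes. In that class, from 55.7% to 72.8% GC, the median difference of all genes was -0.17 with 84.4% lower, and the members in it had 47 of 49 lower and a median of -0.29. In the next class the median was -0.10 over all genes and -0.13 over the 26 members. In the middle class it was -0.010 over all genes, and -0.034 over 11 members, a thinly filled class. Once the GC trend of each library was taken out, 63 of 89 members (70.8%) were lower against 50.5% of all genes, and the median of the members was -0.069.

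**Figure D3:**
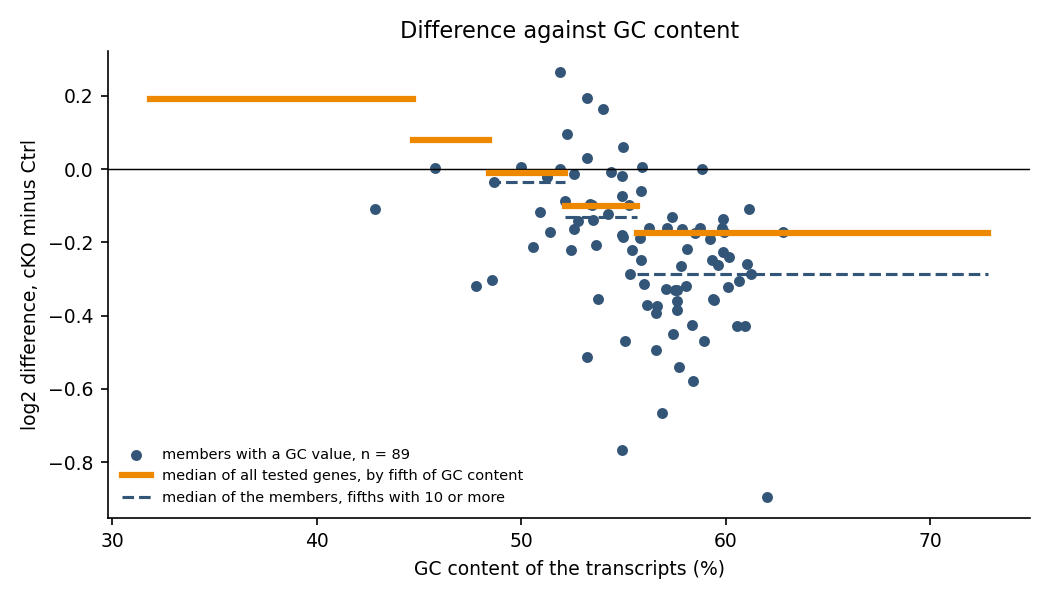
Log2 difference (cKO minus Ctrl) of the 89 tested genes with a GC value against the GC content of their transcripts in percent. Orange bars are the medians of all tested genes in 5 classes of GC content, falling from 0.19 to -0.17, and dashed lines are the medians of the members in the same classes where at least 10 members lie.

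Along the chromosome the lower level was spread over the region. With borders at Kifc1, Notch4, H2-D1 and H2-T23, the medians of the 5 segments were -0.14 (7 tested), -0.19 (12), -0.22 (39), -0.17 (20) and -0.17 (13), with 6, 10, 33, 18 and 11 genes lower. By library, the segments did not behave alike, with an SD within groups of 0.14, 0.16, 0.061, 0.088 and 0.11 from the first to the last. Before Kifc1, cKO replicates 3 and 4 stood at 0.016 and -0.013, inside the Ctrl range of -0.15 to 0.13. From Kifc1 to Notch4, cKO replicates 3 and 4 were lowest at -0.44 and -0.33 and cKO replicate 1 stood at -0.019, inside the Ctrl range. From H2-T23 on, cKO replicates 1 and 2 were lowest, both at -0.25, and cKO replicates 3 and 4 stood at -0.021 and 0.0015. The class III segment from Notch4 to H2-D1 and the segment from H2-D1 to H2-T23 had cKO libraries that were lower than or near the lowest Ctrl library, at -0.27 to -0.14 and -0.26 to -0.074.

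The neighbouring parts of the chromosome gave other values, which are set beside these as a description. The window of equal length before the region had 28 of 44 tested protein-coding genes lower (63.6%) and a median of -0.10, with a median GC content of 52.7%. The rest of chromosome 17 had 250 of 460 lower (54.3%) and a median of -0.020. Only 4 genes could be tested in the window after. The genes of the region that were left out, mostly of class I and class II, were all lower (35 of 35), with a median of -0.37, and H2-T23 averaged 368 ± 45.7 FPKM over the Ctrl libraries and 150 ± 24.9 FPKM over the cKO libraries. At the border of the window, Zfp414, the first gene inside, stood at 7.08 ± 1.34 FPKM in Ctrl and 5.31 ± 0.953 FPKM in cKO; here and in the following, pairs of means are given with SD in this order (n = 3 and n = 4). Myo1f, the last tested gene before it, stood at 2.50 ± 1.07 and 1.90 ± 0.690 FPKM.

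Of the genes described here, the 3 tested ones nearest to H2-T23 on each side had smaller differences than its -1.30. On the near side lie Abcf1, a protein of translation initiation, Prr3, and the GTP-binding protein gene Gnl1, with differences of -0.097, -0.45 and -0.24. On the far side lie the class I-like Gm7030, the RNase P subunit gene Rpp21 and the ubiquitin ligase gene Trim39, with -0.42, -0.39 and -0.21. Class I genes that were left out lie closer to H2-T23 on the far side, or between Gm7030 and Rpp21. Some had differences near that of H2-T23, with H2-T22 at -1.12, Gm11127 at -1.30 and Gm10499 at -1.53. Others did not: H2-T3, also between Gm7030 and Rpp21, stood at -0.59. H2-T24, which lies closer than Gnl1 on the near side, stood at -0.42. Prr3 stood at 2.69, 2.55 and 3.38 FPKM in Ctrl and at 1.55, 2.13, 2.44 and 1.80 FPKM in cKO, without overlap (limma adjusted p = 0.524). It overlaps Gnl1 on the other strand. The strand setting of the counting is not known from the sources used here, so reads of Prr3 and Gnl1 cannot be told apart where they overlap. A like limit holds for all 29 tested members that overlap another gene, of which 24 were lower, with a median of -0.16. Of the 62 that overlap no other gene 54 were lower, with a median of -0.21.

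The genes of RNA processing and translation held the smallest p of the 91. Of 16 tested, 15 were lower, 4 at an unadjusted p under 0.05, with a median of -0.23. The 4 include Stk19, whose place among RNA genes is doubtful, so this count depends on how the list was drawn. Over all 91, 85.7% were lower, 13 genes at that p, with a median of -0.19. The counts of this and the following lists are to be read beside these values and set no list apart. Dxo, an enzyme that removes faulty or non-canonical caps from RNA, lies at 35055972 to 35058162 on the plus strand and stood at 16.7, 15.6 and 16.8 FPKM in Ctrl and at 12.3, 12.9, 12.4 and 13.1 FPKM in cKO. All cKO values lay below all Ctrl values, and the spread within each group was narrow. The difference was -0.36 (SE 0.091, limma adjusted p = 0.475), with 77.5% of the Ctrl mean left in cKO. Stk19, whose start lies 93 bases from that of Dxo on the other strand, stood at 20.3, 22.3 and 20.7 FPKM in Ctrl and at 15.3, 12.6, 20.6 and 12.1 FPKM in cKO. Here cKO replicate 3 lay within the Ctrl range (difference -0.49, SE 0.18, limma adjusted p = 0.524). Rpp21 stood at 32.7 ± 6.68 and 24.6 ± 3.37 FPKM (limma adjusted p = 0.554), with overlap. Hnrnpm, a splicing factor, stood at 70.02 ± 8.30 and 56.6 ± 11.3 FPKM, and Ddx39b, a helicase of splicing and RNA export and one of the 3 most abundant members, at 81.9 ± 2.72 and 72.3 ± 9.01 FPKM. Mrps18b, of the mitochondrial ribosome, had the highest difference of the 91, with 12.2 to 18.9 FPKM in Ctrl and 16.3 to 18.7 FPKM in cKO, which overlapped (limma adjusted p = 0.651).

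In protein folding and degradation, 10 of 14 tested genes were lower, 2 at an unadjusted p under 0.05, with a median of -0.14. The list also counts Rab11b, Vps52 and Csnk2b, whose main roles lie elsewhere. They stood just above 0, at 0.0066, 0.0062 and 0.031, so the share lower depends on how the list was drawn. Pfdn6, a subunit of prefoldin, which passes unfolded actin and tubulin to the chaperonin, lies at 34157883 to 34159317 on the minus strand. It stood at 53.0, 48.04 and 43.996 FPKM in Ctrl and at 43.1, 23.1, 22.1 and 28.3 FPKM in cKO. The groups did not overlap, but cKO replicate 1 stood just below the lowest Ctrl library and far above the other 3. The difference was -0.77 (SE 0.23, limma adjusted p = 0.511). Fkbpl, a protein related to immunophilins, stood at 2.21 ± 0.431 and 1.61 ± 0.127 FPKM, also without overlap (limma adjusted p = 0.553). Bag6, a chaperone for membrane proteins, had narrow groups, with 41.0 to 42.7 FPKM in Ctrl and 35.6 to 37.5 FPKM in cKO (difference -0.17, limma adjusted p = 0.611). The Bag6 difference lay between -0.18 and -0.15 when a single library was left out. Over all 22 alternatives it ranged from -0.22 to -1e-04, so it depended on the processing. Trim31, a ubiquitin ligase, stood at 73.1 ± 4.11 and 71.9 ± 10.6 FPKM, and its small difference of -0.034 turned to 0.054 after rescaling to a common sum and 0.073 after quantile normalization.

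Chromatin and transcription genes were lower in 16 of 16 tested, 2 of them at an unadjusted p under 0.05, with a median of -0.19. Rxrb, a nuclear receptor that pairs with receptors for retinoids, vitamin D and lipids, lies at 34250786 to 34257377 on the plus strand and stood at 19.3, 18.4 and 18.04 FPKM in Ctrl and at 16.3, 14.4, 10.7 and 13.9 FPKM in cKO. The groups did not overlap (difference -0.43, SE 0.15, limma adjusted p = 0.516). Atf6b, a transcription factor of the endoplasmic reticulum stress response, stood at 18.8 ± 1.46 and 15.6 ± 1.25 FPKM, where cKO replicate 1 at 17.3 FPKM lay above Ctrl replicate 2 at 17.1 FPKM. Brd2, a bromodomain protein that reads acetylated histones, stood at 29.6 ± 0.569 and 26.6 ± 3.43 FPKM, with cKO replicates 1 and 2 inside the Ctrl range.

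**Figure D4:**
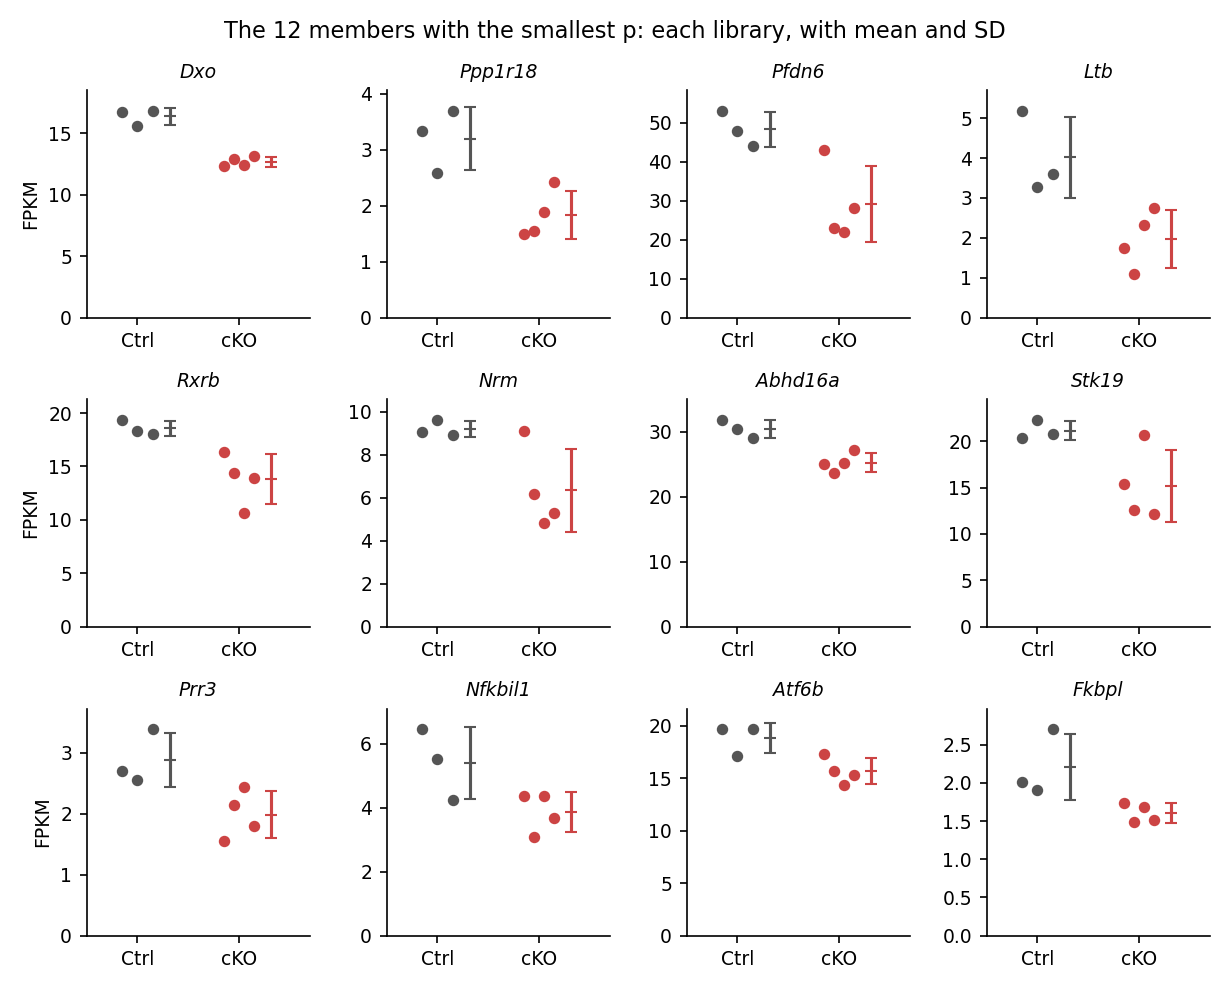
FPKM in each library (points) with mean and SD (bars) for the 12 of the 91 genes with the smallest limma p among those with a mean of at least 1 FPKM; each axis starts at 0. Dxo, with all cKO libraries between 12.3 and 13.1 FPKM, has narrow groups, while Nrm, Stk19 and Pfdn6 each have 1 cKO library near the Ctrl values.

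Structural, adhesion and receptor genes were lower in 10 of 10 tested, 2 at an unadjusted p under 0.05, with a median of -0.33; another 10 lay under the level required. Ppp1r18, which directs a protein phosphatase to actin, lies at 36176483 to 36186488 on the plus strand and stood at 3.33, 2.58 and 3.69 FPKM in Ctrl and at 1.495, 1.55, 1.89 and 2.43 FPKM in cKO. The groups did not overlap (difference -0.67, SE 0.18, limma adjusted p = 0.493), with cKO replicate 4 close to Ctrl replicate 2. Its neighbour Nrm, a protein of the inner nuclear membrane, stood at 9.07, 9.60 and 8.90 FPKM and at 9.11, 6.19, 4.82 and 5.28 FPKM, so that cKO replicate 1 lay among the Ctrl libraries (limma adjusted p = 0.524). Tubb5, a beta-tubulin and the second most abundant member, ranged from 67.6 to 99.2 FPKM in Ctrl and from 60.7 to 108 FPKM in cKO; its difference of -0.087 turned to 0.00060 with a common sum, 0.025 with quantile normalization and 0.12 with array weights. Notch4, a Notch receptor typical of endothelium, stood at 0.442 to 0.592 FPKM in Ctrl and 0.193 to 0.631 FPKM in cKO, under the level for testing (exact 2-sided permutation p = 0.800, where the smallest possible is 0.0571). The endothelial markers stood at a sum of 0.378 to 0.722 FPKM in Ctrl and 0.264 to 0.771 FPKM in cKO.

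Of the genes for metabolism and transport, 11 of 14 tested were lower, 1 at an unadjusted p under 0.05, with a median of -0.16. Abhd16a, a lipase of phosphatidylserine, stood at 31.8, 30.4 and 29.0 FPKM in Ctrl and at 25.02, 23.6, 25.2 and 27.1 FPKM in cKO, without overlap (difference -0.26, SE 0.097, limma adjusted p = 0.524). Slc39a7, a zinc transporter of the secretory pathway, stood at 50.4 ± 7.39 and 40.2 ± 4.90 FPKM. Clic1, an intracellular chloride channel protein, was the most abundant of the 125 genes, at 223 ± 32.5 and 208 ± 53.8 FPKM, and overlapped between groups. Its difference of -0.12 turned to 0.022 with quantile normalization. Angptl4, a secreted inhibitor of lipoprotein lipase that is known to respond to fasting and to PPAR ligands, split the libraries across the groups. It stood at 6.66 FPKM in Ctrl replicate 1, 6.71 in cKO replicate 1 and 6.36 in cKO replicate 2, and between 32.1 and 43.6 FPKM in the other 4 libraries. Its difference between groups (-0.51, SE 0.83) was smaller than its error. Angptl4 was chosen after its values were seen, as were Mrps18b, Bag6, Wdr46, Rab11b, Vps52, Csnk2b and Ier3.

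Among TNF family and leukocyte genes, 4 of 8 could be tested and all 4 were lower, 2 at an unadjusted p under 0.05. Of these 4, only Ltb belongs to the TNF family, and the others are Nfkbil1, Ubd and Ier3. Ier3 hardly differed, at -0.0085, so the count does not describe leukocyte genes as a group. Ltb, which encodes the membrane anchor of the lymphotoxin trimer and is made by lymphocytes, lies at 35413483 to 35415281 on the plus strand and had the lowest difference of the 91, at -0.89 (SE 0.27, limma adjusted p = 0.511). It stood at 5.18, 3.26 and 3.61 FPKM in Ctrl and at 1.75, 1.08, 2.33 and 2.76 FPKM in cKO, on 60 to 110 and 20 to 42 reads, without overlap. The 8 markers of T cells and innate lymphoid cells stood beside it at a sum of 73.9 to 158 FPKM in Ctrl and 42.9 to 120 FPKM in cKO, with all 6 tested markers lower and none of them called; Ctrl replicate 1 was highest and cKO replicate 1 lowest. The myeloid markers stood at 29.5 to 39.8 and 15.9 to 34.9 FPKM, with all 5 tested lower. The B and plasma cell markers did not follow, at 2.24 to 6.27 and 2.90 to 10.3 FPKM, with 1 of 3 tested lower. The part of these cell types in the Ltb value was not tested. In bulk samples fewer cells of a type and less RNA per cell cannot be told apart. Nfkbil1, related to inhibitors of NF-kappa B, stood at 5.40 ± 1.12 and 3.87 ± 0.619 FPKM (limma adjusted p = 0.542), with overlap. Ltb and Nfkbil1 each share part of their position with another gene, so the limit given for Prr3 holds for them too. Ubd, a ubiquitin-like modifier known to be induced by interferon gamma and TNF, stood at 31.9, 6.29 and 7.91 FPKM in Ctrl and at 20.1, 7.47, 4.70 and 19.2 FPKM in cKO. Its difference of -0.11 rested on Ctrl replicate 1 and was 0.59 without that library. Aif1, a marker of macrophages, stood at 0.201 to 0.579 and 0.201 to 0.839 FPKM on 3 to 12 reads. Lst1 had at most 6 reads and Lta at most 5 reads in a library (exact 2-sided permutation p = 0.914 for Aif1, 0.343 for Lst1 and 1 for Lta, smallest possible 0.0571).

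The complement genes of the class III region did not separate the groups. Cfb, which encodes factor B of the alternative pathway, was well expressed at 75.2, 74.5 and 86.5 FPKM in Ctrl and at 66.2, 58.5, 74.5 and 83.7 FPKM in cKO, with overlap (difference -0.16, limma adjusted p = 0.759). C2, its counterpart in the classical pathway, stood at 6.66 ± 1.48 and 7.27 ± 2.40 FPKM, and cKO replicate 4 was highest at 10.9 FPKM. The C2 difference of 0.097 turned to -0.10 with a replicate block. C4b, the complement component cleaved to form the C2-binding fragment, stood at 1.25 ± 0.483 and 1.04 ± 0.395 FPKM. C4a was annotated as a transcribed pseudogene and is not among the 125.

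The HSP70 genes varied more between libraries than between groups. Hspa1b stood at 3.06, 7.61 and 6.79 FPKM in Ctrl and at 2.64, 1.98, 15.3 and 5.04 FPKM in cKO. Hspa1a followed it at 0.681, 3.47 and 2.54 FPKM and at 0.503, 0.636, 5.19 and 0.950 FPKM. Both were lowest in cKO replicates 1 and 2 and Ctrl replicate 1 and highest in cKO replicate 3, and the groups overlapped (limma adjusted p = 0.936 and 0.860). Hspa1l, typical of testis, stood at 0.592 to 1.02 and 0.803 to 1.18 FPKM (limma adjusted p = 0.783). The transcripts of Hspa1a and Hspa1b were 97.5% identical over 2277 aligned bases, so reads can be split between them and their single values are uncertain. Their promoters, from 250 bases before to 50 bases after the start (RefSeq, GRCm38.p6, minus strand, chr17:34972107-34972406 and chr17:34959189-34959488), were identical at 296 of 300 positions. They are shown because the genes moved together between libraries; capitals mark 3 GC boxes (GGGCGG), the heat shock element core GAANNTTC and an inverted CCAAT box.
Hspa1a: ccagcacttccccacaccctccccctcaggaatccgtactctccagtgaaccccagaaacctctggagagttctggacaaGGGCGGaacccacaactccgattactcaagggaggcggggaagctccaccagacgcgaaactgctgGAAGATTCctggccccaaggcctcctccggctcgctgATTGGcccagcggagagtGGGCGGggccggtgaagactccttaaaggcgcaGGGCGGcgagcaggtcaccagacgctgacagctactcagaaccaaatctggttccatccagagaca
Hspa1b: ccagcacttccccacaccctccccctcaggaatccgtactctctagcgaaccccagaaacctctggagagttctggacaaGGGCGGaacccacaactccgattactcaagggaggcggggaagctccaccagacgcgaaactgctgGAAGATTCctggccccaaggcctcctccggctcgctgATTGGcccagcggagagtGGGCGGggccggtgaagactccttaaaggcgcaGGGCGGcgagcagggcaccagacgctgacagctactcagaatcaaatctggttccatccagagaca
Of 27025 promoters of this length, 7.95% held GAANNTTC, 35.9% a GC box and 37.9% a CCAAT box, on either strand.

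Many of the genes lie head to head. Among the 125 there were 13 pairs on opposite strands whose starts lay within 1000 bases, and both genes could be tested in 12. In 7 of the 12 both genes were lower. In the pair Slc39a7 and Rxrb, 122 bases apart, the differences were -0.32 and -0.43. In Pfdn6 and Wdr46, a nucleolar protein gene, 291 bases apart, they were -0.77 and -0.36, and in Stk19 and Dxo -0.49 and -0.36. In the other 5 pairs at least 1 gene was at or above 0, among them Hspa1a and Hspa1l with -0.47 and 0.19. Since 85.7% of the genes were lower in any case, the count of pairs says nothing about shared promoters.

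RefSeq promoters were matched for 105 of the 125 genes and for 76 of the 91 tested. Those of the 76 held a median of 19 CpG pairs in 300 bases, against 7 over all promoters, a GC box in 56.6% (35.9% over all) and the ETS motif CCGGAAGT in 11.8% (4.0% over all). The 76 had passed the level for testing, which was not asked of the promoters they are set beside. Over all 105, without that filter, the values were nearer, at 13 CpG pairs, 49.5% and 8.57%. Shares in the next sentence are again those of the 76. The interferon-stimulated response element was found in 3.95% (3.49% over all), the gamma-activated site TTCNNNGAA in 10.5% (8.47%), the NRF1 motif in 3.95% (4.78%) and TATAAA in 11.8% (14.2%). The 4 with the smallest p among genes with an entry are shown, on GRCm38.p6, as chr17:35865345-35865644 (plus) for Ppp1r18, chr17:33940294-33940593 (minus) for Pfdn6, chr17:35194257-35194556 (plus) for Ltb and chr17:34031562-34031861 (plus) for Rxrb. Capitals mark a TATA box motif at each end, a CCAAT box and a GC box in Ppp1r18, a pair of ETS motifs in Pfdn6, a gamma-activated site in Ltb and GC boxes in Rxrb, on either strand.
Ppp1r18: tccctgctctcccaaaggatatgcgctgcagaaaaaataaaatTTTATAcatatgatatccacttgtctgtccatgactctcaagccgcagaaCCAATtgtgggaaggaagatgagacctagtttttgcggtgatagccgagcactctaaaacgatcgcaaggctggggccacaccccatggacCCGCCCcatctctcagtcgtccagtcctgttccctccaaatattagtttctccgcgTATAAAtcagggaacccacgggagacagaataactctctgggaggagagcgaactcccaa
Pfdn6: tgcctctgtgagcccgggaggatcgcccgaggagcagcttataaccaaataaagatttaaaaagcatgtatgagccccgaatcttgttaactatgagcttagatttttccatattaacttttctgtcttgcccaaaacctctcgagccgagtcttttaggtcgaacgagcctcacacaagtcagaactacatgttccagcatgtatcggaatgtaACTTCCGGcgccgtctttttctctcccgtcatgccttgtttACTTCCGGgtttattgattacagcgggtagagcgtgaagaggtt
Ltb: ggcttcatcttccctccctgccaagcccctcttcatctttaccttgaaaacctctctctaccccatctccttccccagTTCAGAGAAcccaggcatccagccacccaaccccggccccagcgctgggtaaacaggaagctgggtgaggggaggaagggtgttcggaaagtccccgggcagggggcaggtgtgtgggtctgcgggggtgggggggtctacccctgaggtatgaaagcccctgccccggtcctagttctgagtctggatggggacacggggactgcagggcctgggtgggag
Rxrb: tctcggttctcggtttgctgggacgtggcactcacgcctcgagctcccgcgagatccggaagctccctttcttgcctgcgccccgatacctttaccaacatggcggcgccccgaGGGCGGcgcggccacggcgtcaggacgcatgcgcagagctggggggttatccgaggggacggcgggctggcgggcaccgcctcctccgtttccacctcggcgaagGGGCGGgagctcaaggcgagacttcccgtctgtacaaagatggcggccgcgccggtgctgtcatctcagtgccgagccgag
The 4 promoters differ in type, from 37 CpG pairs in Rxrb to 7 in Ltb, and no motif searched was found in all 4. A match is a description of the letters and not of binding.

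The 34 genes under the level for testing included 5 with no read in any library. The smallest exact p among them was 0.0571, the smallest possible, for 3 genes, and 10 had a higher and 19 a lower mean in cKO.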

How the data were processed

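The authors deposited 1 FPKM value per gene and library, made from reads aligned with HISAT2 per the submitters' processing notes. No source used here gives the aligner's version, the counter, its strand setting or the gene annotation. Chromosome accessions in the deposited table are those of GRCm39. Multiplied by gene length and divided by the library's smallest step, 100% of values lay within 0.01 of a whole number, and these are the reads quoted. Columns were matched to samples by their descriptions. The 13057 genes averaging 0.5 FPKM or more were put on log2(FPKM + 0.5), which understates the change of low genes, and tested with limma 3.58.1 in R 4.3.3 (lmFit, eBayes with trend, 2-sided, Benjamini-Hochberg over all genes, threshold 0.05). Genes under that level had an exact permutation test over 35 splits. The limma function was tested on simulated data. GC content came from GENCODE vM21 transcripts matched by Entrez ID (85.9% of tested genes). Genes named were the 12 with the smallest p among those at a mean of at least 1 FPKM and an unadjusted p under 0.05, the lowest p and most abundant gene of each segment and role list, the neighbours of H2-T23, the 3 most abundant genes and a fixed set of complement, HSP70 and leukocyte genes. The genes, lists and tests were chosen with earlier results of these data known. Alternatives were other pseudocounts, filters, scalings, variance models, a replicate block and leaving out each library.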

Additional observations from a re-analysis of the deposited data

Results flagged for a closer look

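C2 stood at 10.9 FPKM in cKO replicate 4, while the other 3 cKO libraries lay between 5.90 and 6.30 FPKM, a gap of 0.919 of the range. Hspa1a stood at 5.19 FPKM in cKO replicate 3, while the other 3 cKO libraries lay between 0.503 and 0.950 FPKM, a gap of 0.905 of the range. Both gaps exceed Dixon's critical value for 4 samples, which chance exceeds in about 1 in 20 groups; the cKO values of 42 genes and 9 medians over gene sets were looked at.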

How the results depend on the processing

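In all 26 alternatives the count of called members was 0. The median difference of the members kept its sign in each alternative that gives one, and it was -0.107 with a common sum (TPM), -0.069 with the GC trend removed and -0.23 with voom on recovered reads; the GC, per-read and voom alternatives, and the one without class I-like members, were chosen after seeing the data. The members at an unadjusted p under 0.05 and lower numbered 4 with TPM and 3 with the GC trend removed, and 6 to 17 when 1 library was left out; those higher numbered 1 with no filter and 1 with the length trend removed, and 0 to 1 when 1 library was left out. Members without overlap and lower numbered 3 with the GC trend removed and 9 to 23 when 1 library was left out (fewer samples overlap less), and those higher numbered 1 with no filter and 0 to 3 when 1 library was left out. The segment from Notch4 to H2-D1 had a median of -0.14 with TPM, -0.15 with quantile normalization and -0.064 with the GC trend removed. The segment from H2-D1 to H2-T23 had -0.045 with the GC trend removed. With that trend removed, the segments before Kifc1, from Kifc1 to Notch4 and from H2-T23 on had -0.084, -0.041 and -0.13. Members lower numbered 69 with TPM and 72 with quantile normalization. Single genes were followed only for 36 of the 91 tested members, those whose values the text describes other than Rab11b, Vps52, Csnk2b and Ier3. Of these 36, the differences that changed sign were those of Tubb5 (0.00060 with TPM, 0.025 quantile, 0.12 array weights, -0.25 to 0.045 with 1 library left out), Trim31 (0.054 with TPM, 0.073 quantile, 0.0079 length trend, -0.12 to 0.045), Clic1 (0.022 quantile), Abcf1 (0.023 GC trend), Ubd (0.011 length trend, -0.54 to 0.59), C2 (-0.10 with the replicate block, -0.10 to 0.19), Hspa1b (-0.76 to 0.13) and C4b (-0.40 to 0.0090). Removing the GC trend and leaving out samples show only that values depend on them, and the cause of these changes was not tested. With the replicate block 91.2% of the members were lower, 0 were called and the call of Stk24 was lost (limma adjusted p = 0.137). Same-numbered samples correlated at 0.12, -0.087 and -0.13, and the highest value, 0.31, was between Ctrl replicate 2 and cKO replicate 3. Pairing by number was thus not seen, but so few samples cannot exclude it. Count models on the recovered reads and voom with TMM were not run. A count of 3 reads over 1 kb corresponded to 0.155 to 0.216 FPKM, so members near that level could not be compared at this depth.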
